A study of Mus musculus with 14 samples.

Results

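The 4 arrays described here follow mouse embryonic fibroblasts transduced with the reprogramming factors SKO together with MEF2C, from day 6 (2 arrays) to day 10 (2 arrays). They are 4 of 14 Affymetrix whole-transcript arrays and were chosen by their titles. The cells were ICR fibroblasts kept in mESC medium, and feeder cells were removed before lysis. The other arrays hold SKO with an empty Flag vector (2 arrays per day), SKO with HDAC7 (2 arrays per day) and, as a further control, GFP (1 array per day), where the labels name no SKO. SKO is not spelled out in the labels and commonly stands for Sox2, Klf4 and Oct4 (Pou5f1). The labels do not name the promoter or the share of cells transduced. A free-text description repeated on every array names another sample and was not used. The SKO arrays carry experiment numbers 1 and 2, and nothing says that these were separate cultures, so every p-value reflects only how far these arrays differ, and that spread may be technical.

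Adding the SKO factors to fibroblasts starts reprogramming towards pluripotency, during which fibroblast genes are switched off, epithelial genes come on, and a small share of cells reaches the pluripotent state. MEF2C is a transcription factor known for driving genes of skeletal, cardiac and smooth muscle. It is held in check by class IIa histone deacetylases such as HDAC7, which bind it. Genes of the contractile apparatus, made by muscle and by activated fibroblasts, are also controlled by serum response factor, which binds a sequence called the CArG box.

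The question put to the arrays was which genes differed between day 10 and day 6 in SKO+MEF2C, and whether that change differed from the change over the same days with the other vectors. Values are log2 expression per gene, and a difference of 1 on that scale is a doubling. One gene-wise linear model was fitted to all 14 arrays with limma, so each gene has 1 estimate of spread that all groups share. The threshold for a call was an adjusted p (Benjamini-Hochberg, over 19935 genes) under 0.05. Each ± is the standard error (SE) of a difference from that model. At day 10 the 2 SKO+Flag arrays stood furthest apart among the replicate pairs, with an SD of their differences of 0.172 over all probe sets, against 0.123 and 0.120 for the SKO+MEF2C pairs at day 6 and day 10. Results that set SKO+MEF2C against SKO+Flag are therefore also given without 1 of those Flag arrays.

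The levels of Mef2c and Pou5f1 fitted the vector labels. Mef2c read 9.72 and 9.47 at day 6 and 9.93 and 9.80 at day 10 in SKO+MEF2C, and between 6.31 and 6.81 on the other 10 arrays. Pou5f1 read between 11.70 and 11.92 on the SKO+MEF2C arrays and 5.24 and 5.18 on the GFP arrays. The Sox2 probe set did not separate the vectors, at 5.16 to 5.29 in SKO+MEF2C and 4.93 and 5.27 in GFP. The level of Klf4 was not set against GFP here, so of the SKO factors only Pou5f1 was seen to fit the label. None of the 5 genes transduced in this series was called between days in SKO+MEF2C. The differences were 0.27 ± 0.10 for Mef2c (limma adjusted p = 0.24), 0.17 ± 0.08 for Pou5f1, 0.10 ± 0.08 for Hdac7, 0.08 ± 0.08 for Sox2 and 0.06 ± 0.08 for Klf4. By the labels, Hdac7 was not among the genes given to the SKO+MEF2C cells. The other Mef2 genes and class IIa deacetylases were not called either, with Hdac4 and Hdac9 both at 0.19, Hdac5 at 0.13, Mef2d at 0.09 and Mef2a at -0.10.

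The fibroblast label fitted the arrays. All 12 fibroblast markers lay above the array's median level on all 4 SKO+MEF2C arrays, and their mean level was 9.82 at day 6 and 9.81 to 9.82 at day 10. Of these 12 genes, decorin (Dcn, 0.66 ± 0.10) rose and Col1a1 (-0.36 ± 0.07) fell. Leaving out 1 array at a time took the limma adjusted p of Dcn up to 0.062 and that of Col1a1 up to 0.15. The mean level of the marker lists of other cell types lay between 5.22 and 5.79 on the 4 arrays, near the array medians of 5.68 to 5.76.

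Between day 6 and day 10 in SKO+MEF2C, 614 of 19935 genes were called, which is 3.08%. Of these, 369 (1.85%) were higher and 245 (1.23%) lower at day 10. The counts of called members given below for each gene list are to be set beside these shares of all genes. Most of the changes were small: the median size among called genes was 0.462, the smallest called difference was 0.240, and 24 genes changed by at least 1, of which 23 were higher. The only gene that fell by at least 1 was Fhl1. Both day 10 arrays lay above both day 6 arrays for 22.5% of all genes and below them for 23.2%. With 2 arrays per day, many genes separate like this with no change between days, so these are not shares of changed genes. The count depended on having both arrays of each day: it was 317 without the first and 272 without the second day 6 array, and 283 without the first and 250 without the second day 10 array. Over all genes the SD of the change was 0.150 in SKO+MEF2C, 0.200 in SKO+Flag, 0.242 in SKO+HDAC7 and 0.228 in GFP. In bulk RNA, fewer cells of a type and less RNA per cell cannot be told apart, and this holds for each result that follows.

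**Figure D1:**
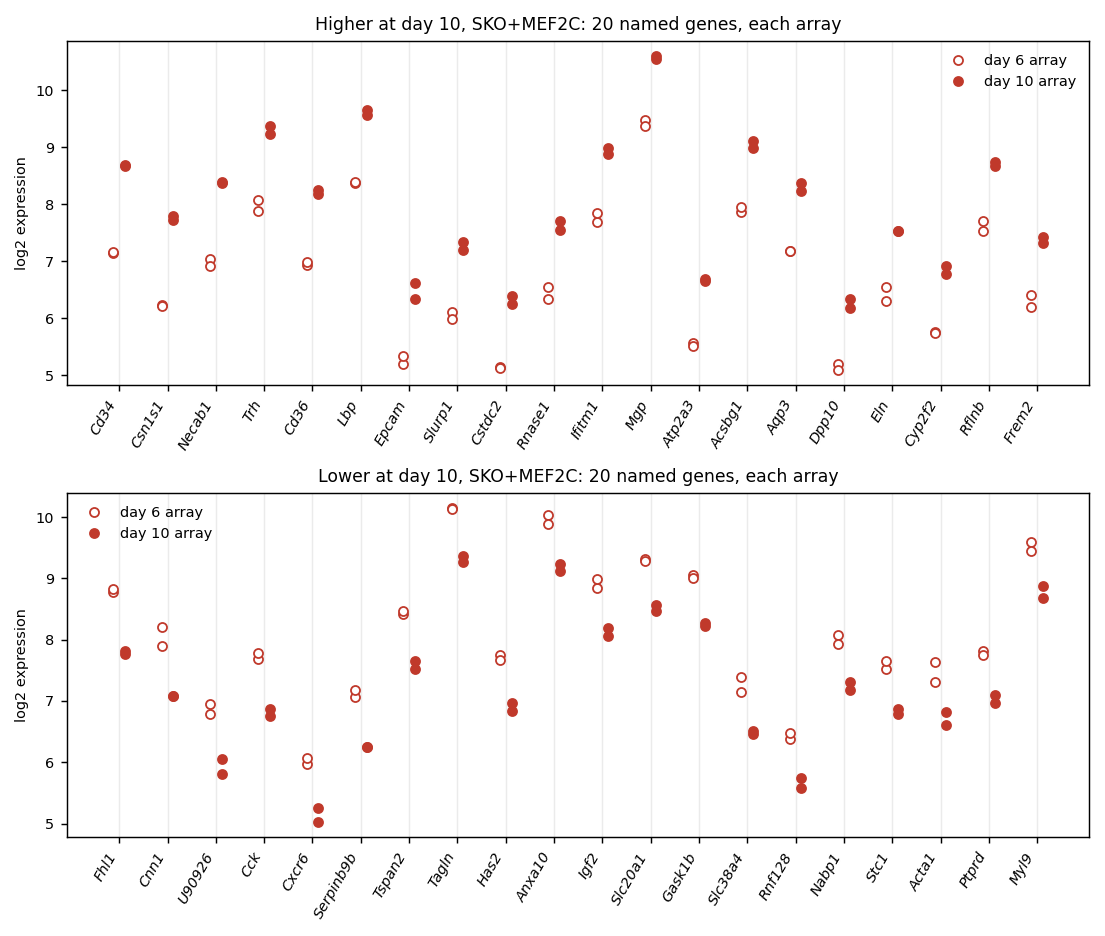
Levels (log2 expression, vertical axis) of the 20 genes with the largest rise (top) and the 20 with the largest fall (bottom) between day 6 and day 10 in SKO+MEF2C, with open circles for the 2 day 6 arrays and filled circles for the 2 day 10 arrays. The arrays of the same day lie close together and the days do not overlap for any of these genes, which were chosen for that. Cd34 moves most, from 7.15 to 8.68.

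Genes of the contractile apparatus were among those that fell most. Of 20 smooth muscle contractile genes measured, 10 fell and 0 rose, against 1.23% called lower and 1.85% higher over all genes. The median change over the list was -0.287, against -0.003 over all genes. The 10 were Cnn1, Tagln, Myl9, Tpm2, Cald1, Actg2, Myh11, Acta2, Tpm1 and Flna. Without 1 array at a time, 8 or 9 members were called lower, and each of the 5 with the largest fall was called in every case. The list was put together with earlier results of these data known, so its direction is a description.

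Calponin 1 (Cnn1), which binds actin and restrains myosin, read 8.20 and 7.90 at day 6 and 7.08 and 7.07 at day 10 (-0.98 ± 0.09, limma adjusted p = 0.00026). Transgelin (Tagln), an actin-bundling protein and a common marker of smooth muscle, read 10.14 and 10.13 at day 6 and 9.27 and 9.37 at day 10 (-0.82 ± 0.07, limma adjusted p = 0.00012). Both genes were therefore still well above the array median at day 10, but lower on each day 10 array than on each day 6 array. Myl9, the regulatory light chain of smooth muscle myosin, went from 9.59 and 9.44 to 8.67 and 8.87 (-0.74 ± 0.09). Smooth muscle actin, Acta2, stayed among the brightest genes, at 11.99 and 11.88 and then 11.48 and 11.45 (-0.47 ± 0.06, limma adjusted p = 0.0023). The tropomyosin genes Tpm2 (-0.72) and Tpm1 (-0.42) fell too, as did caldesmon (Cald1, -0.59), smooth muscle myosin heavy chain (Myh11, -0.49), gamma-smooth muscle actin (Actg2, -0.54) and filamin A (Flna, -0.27). Myocd, the coactivator that gives serum response factor its smooth muscle targets, read between 4.95 and 5.12 on the 4 arrays and was not called (-0.11). The other uncalled members ranged from -0.30 (Actn1) to 0.09 (Smtn).

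**Figure D2:**
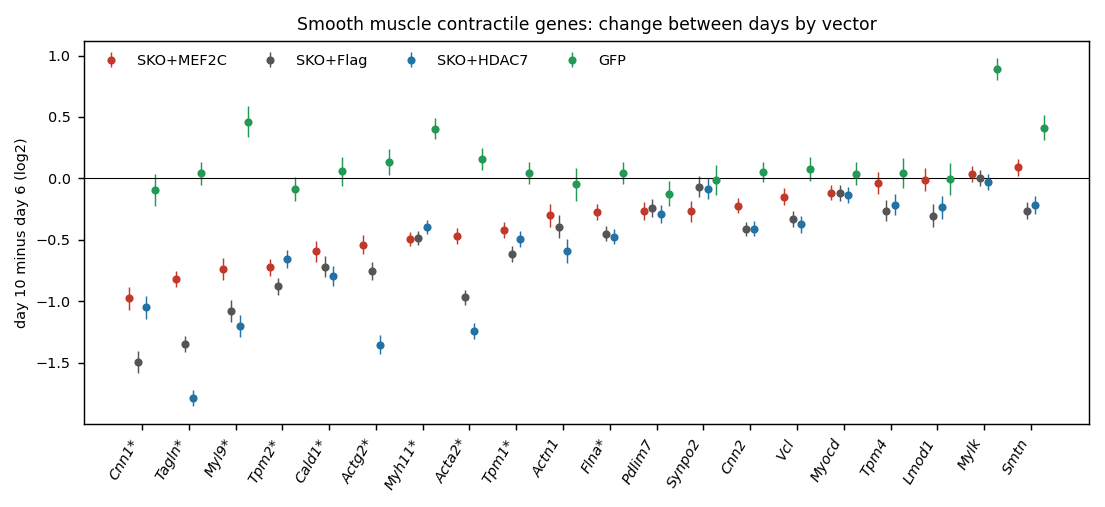
Change between day 6 and day 10 (log2, vertical axis) of the 20 smooth muscle contractile genes in SKO+MEF2C, SKO+Flag, SKO+HDAC7 and GFP. Points are differences of group means, bars are 1 SE from the shared model, GFP has 1 array per day, and a star marks the 10 genes called in SKO+MEF2C. Those 10 lie at or below -0.27 in all 3 SKO groups and between -0.09 and 0.46 in GFP.

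Striated muscle genes, including targets known for MEF2, did not move as a group. Of 42 measured, 1 rose and 2 fell, the median was -0.031, and 11 lay above the array median on all 4 SKO+MEF2C arrays. Skeletal muscle actin (Acta1) read 7.31 and 7.64 at day 6 and 6.61 and 6.83 at day 10 (-0.75 ± 0.14, limma adjusted p = 0.016). Cardiac troponin T (Tnnt2) rose by 0.53 ± 0.11, and the small heat shock protein gene Cryab fell by 0.26. Each of these 3 calls was lost without at least 1 array: Acta1 had a limma adjusted p of 0.16 without the second day 6 array, 0.15 without the first day 10 array and 0.052 without the second. Myog, Ckm and Nppa, genes of differentiated muscle, read between 4.92 and 5.75 on the 4 arrays.

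Fhl1, a LIM domain protein of muscle and of contractile fibroblasts, fell most of all genes, from 8.78 and 8.82 to 7.77 and 7.82 (-1.01 ± 0.06, 2.01-fold, limma adjusted p = 2.3e-05). The promoters of the genes that fell most were searched on both strands for the CArG box, in a 300-base RefSeq window (GRCm38.p6) that ends 50 bases after the gene's start. Of the 20 genes with the largest fall, 16 had such a window, and 5 of these (31.25%) held a CArG box: Fhl1, Igf2, Rnf128, Acta1 and Myl9. The share was 1.63% over the 15612 measured genes with a window, 1.81% over all 27025 windows, 3.57% over the called lower genes (7 of 196) and 1.05% over the called higher genes (3 of 285). Of the 20 genes with the largest rise, 15 had a window and 0 of these held one. The box was in 3 of 16 windows of the smooth muscle list (18.75%). It was also in 5 of 36 windows of the striated muscle list (13.89%), in which 2 of 42 genes fell. The MEF2 site was found in 2 of the 16 windows of the largest falls (12.50%) and in 0 of the 15 of the largest rises. It was found in 4.08% of the called lower, 3.51% of the called higher and 3.02% of the measured genes. In the smooth muscle list 1 of 16 windows held it (6.25%), and in the striated muscle list 6 of 36 (16.67%). These are matches of letters in 1 window per gene, and binding to them was not tested. The genes were picked by their change in these data and the lists with earlier results known, so the shares are a description and were not tested. All 5 windows that hold the box among the 20 largest falls are shown. The box is in capitals and begins at position -102 from the start in Fhl1, -155 in Igf2, -217 in Rnf128, -73 in Acta1 and -161 in Myl9. The Acta1 call is the least firm of the 5, as given above.
Fhl1 promoter window, chrX:56779433-56779732, plus strand: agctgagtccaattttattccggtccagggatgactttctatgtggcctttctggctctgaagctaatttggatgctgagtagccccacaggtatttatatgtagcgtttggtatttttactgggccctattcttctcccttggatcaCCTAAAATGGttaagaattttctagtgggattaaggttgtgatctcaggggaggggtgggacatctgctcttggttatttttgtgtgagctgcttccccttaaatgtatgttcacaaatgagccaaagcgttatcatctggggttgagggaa
Igf2 promoter window, chr7:142661222-142661521, minus strand: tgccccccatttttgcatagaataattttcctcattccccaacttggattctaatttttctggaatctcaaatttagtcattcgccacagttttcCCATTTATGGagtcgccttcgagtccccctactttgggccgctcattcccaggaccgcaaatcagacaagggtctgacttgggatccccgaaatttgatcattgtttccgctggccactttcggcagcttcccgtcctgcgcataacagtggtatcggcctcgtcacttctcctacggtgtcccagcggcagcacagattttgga
Rnf128 promoter window, chrX:139610370-139610669, plus strand: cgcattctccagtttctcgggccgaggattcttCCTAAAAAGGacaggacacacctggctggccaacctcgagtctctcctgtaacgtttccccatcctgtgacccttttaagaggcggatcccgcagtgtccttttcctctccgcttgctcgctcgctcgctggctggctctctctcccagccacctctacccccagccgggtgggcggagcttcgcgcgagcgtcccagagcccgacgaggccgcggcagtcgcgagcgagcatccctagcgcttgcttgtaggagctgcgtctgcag
Acta1 promoter window, chr8:123894726-123895025, minus strand: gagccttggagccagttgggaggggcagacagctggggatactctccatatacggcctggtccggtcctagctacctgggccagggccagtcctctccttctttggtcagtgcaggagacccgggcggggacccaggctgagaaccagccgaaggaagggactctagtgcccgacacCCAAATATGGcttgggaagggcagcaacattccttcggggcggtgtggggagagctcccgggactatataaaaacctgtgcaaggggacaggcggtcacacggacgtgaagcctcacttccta
Myl9 promoter window, chr2:156775214-156775513, plus strand: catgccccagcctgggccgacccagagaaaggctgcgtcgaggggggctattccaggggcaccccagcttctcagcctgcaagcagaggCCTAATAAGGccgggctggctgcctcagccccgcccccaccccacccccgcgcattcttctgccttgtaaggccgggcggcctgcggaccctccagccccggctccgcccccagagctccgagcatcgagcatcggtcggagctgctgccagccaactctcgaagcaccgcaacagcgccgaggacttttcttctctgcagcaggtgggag

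The other genes with the largest falls covered growth factors, surface proteins and secreted signals. Insulin-like growth factor 2 (Igf2) read 8.84 and 8.98 at day 6 and 8.20 and 8.05 at day 10 (-0.79 ± 0.07, limma adjusted p = 0.00024). Cholecystokinin (Cck), a peptide hormone, went from 7.69 and 7.79 to 6.76 and 6.87 (-0.92 ± 0.08). The chemokine receptor gene Cxcr6 reached 5.25 and 5.03 at day 10, below the array median, from 5.97 and 6.07. Anxa10, an annexin that was bright in SKO+MEF2C, fell from 10.04 and 9.89 to 9.11 and 9.24 (-0.79 ± 0.08). Hyaluronan synthase 2 (Has2, -0.80), the phosphate transporter gene Slc20a1 (-0.78), the amino acid transporter gene Slc38a4 (-0.78), stanniocalcin 1 (Stc1, -0.76), the tetraspanin gene Tspan2 (-0.86), the protease inhibitor gene Serpinb9b (-0.87), the ubiquitin ligase gene Rnf128 (-0.76), the receptor phosphatase gene Ptprd (-0.75), Nabp1 (-0.76) and Gask1b (-0.78) also fell. U90926 (-0.94 ± 0.15) was lost without the first day 6 array (limma adjusted p = 0.07) and without the first day 10 array (0.074).

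Among the genes that rose most, several encode surface proteins and secreted proteins. The sialomucin Cd34, a surface marker of blood stem cells and endothelium, read 7.14 and 7.16 at day 6 and 8.69 and 8.68 at day 10 (1.53 ± 0.09, 2.89-fold, limma adjusted p = 2.3e-05). Lipopolysaccharide binding protein (Lbp) read 8.37 and 8.39 and then 9.65 and 9.56 (1.22 ± 0.06, limma adjusted p = 2.3e-05). In both genes the replicate arrays differed by less than 0.1 and the days by more than 1. The fatty acid transporter Cd36 went from 6.93 and 6.98 to 8.18 and 8.25 (1.26 ± 0.19, limma adjusted p = 0.0047), and its call was lost without the second day 10 array (0.051). The milk casein gene Csn1s1 (1.53 ± 0.16) and the calcium-binding protein gene Necab1 (1.41 ± 0.16) rose by like amounts, with wider errors. The water channel Aqp3 (1.12), the calcium pump Atp2a3 (1.13), the acyl-CoA synthetase Acsbg1 (1.13), the ribonuclease Rnase1 (1.18), Slurp1 (1.21), Cstdc2 (1.19), Dpp10 (1.11), Cyp2f2 (1.10), Rflnb (1.09) and Frem2 (1.07) rose as well. Ifitm1, an interferon-induced membrane protein that is also made by early embryonic cells, read 7.68 and 7.84 and then 8.88 and 8.98 (1.17 ± 0.08).

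Neuropeptide and neuronal genes moved both ways: 3 of 25 rose and 2 fell, with a median of 0.022. Thyrotropin-releasing hormone (Trh) read 7.88 and 8.07 at day 6 and 9.23 and 9.36 at day 10 (1.32 ± 0.09, limma adjusted p = 3.8e-05). Proenkephalin (Penk) rose by 0.80 and the orphan receptor gene Gpr50 by 0.68, whereas Cck and the synaptic vesicle gene Syt1 (-0.51) fell. The Syt1 call was lost when 1 array was left out (limma adjusted p up to 0.062).

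A few epithelial adhesion genes rose. Of 31 measured, 14 lay above the array median on all 4 SKO+MEF2C arrays. Of the 31, 6 rose and 0 fell, against 1.85% called higher and 1.23% lower over all genes. The median change was 0.101. Without 1 array at a time, 3 or 4 members were called. Epcam, the epithelial cell adhesion molecule, read 5.20 and 5.34 at day 6 and 6.62 and 6.34 at day 10 (1.21 ± 0.10, 2.32-fold, limma adjusted p = 0.0001). Its day 6 values lay below the array median and its day 10 values above it. The protease inhibitor Spint2 (0.54 ± 0.07) and the desmosomal plaque protein Pkp1 (0.49 ± 0.07) also kept their calls without any 1 array. The membrane protease St14 (0.54), the tight junction genes Ocln (0.53, limma adjusted p = 0.0497) and F11r (0.35) completed the 6, and these 3 lost their calls without some single arrays, with limma adjusted p up to 0.28 for Ocln. E-cadherin (Cdh1) read 5.74 and 5.98 at day 6 and 6.07 and 5.99 at day 10 and was not called (0.17 ± 0.12). Of 15 keratins, Krt16 (0.41) and Krt14 (0.34) rose, and neither call held without each single array. Among 16 epithelial regulators, Tfap2a rose (0.51 ± 0.08, limma adjusted p up to 0.08 without 1 array), and Esrp1 (0.17) and Grhl2 (-0.05) were not called.

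Pluripotency genes were largely at low levels at both days. Of 34 measured, 2 rose and 0 fell, against 1.85% called higher and 1.23% lower over all genes. The median was 0.000, and 10 lay above the array median on all 4 SKO+MEF2C arrays. Tfcp2l1, a transcription factor of naive embryonic stem cells, read 6.18 and 6.15 at day 6 and 6.79 and 6.88 at day 10 (0.67 ± 0.08, limma adjusted p = 0.00073). L1td1, an RNA-binding protein of stem cells, rose by 0.48 ± 0.08, a call that was lost without 1 array (limma adjusted p up to 0.067). Nanog read between 5.26 and 5.40 (-0.07 ± 0.08), Esrrb between 4.97 and 5.15 (-0.06 ± 0.09) and Zfp42 between 4.86 and 4.95 (0.02 ± 0.09) on the 4 arrays, all below the array median.

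Interferon-stimulated genes rose in part. Of 27 measured, 7 rose and 0 fell, against 1.85% called higher and 1.23% lower over all genes. The median was 0.161. Without 1 array at a time, 3 to 5 members were called. Oas2, which makes the signal that activates RNase L, read 5.48 and 5.35 at day 6 and 6.05 on both arrays at day 10 (0.64 ± 0.06, limma adjusted p = 0.00028). The guanylate-binding protein Gbp3 read 6.52 and 6.56 and then 7.25 on both arrays (0.71 ± 0.11, limma adjusted p = 0.0047). Oasl2 (0.58), Ifi27 (0.46), Bst2 (0.45), the RNA sensor Ddx58 (0.44) and the transcription factor Irf7 (0.35) also rose. The calls of Oas2, Gbp3 and Oasl2 held without any 1 array, and the other 4 were lost without some single arrays (limma adjusted p up to 0.19 for Bst2). Other well-known members stayed low, with Mx1 at 4.46 to 4.50 and Rsad2 at 5.18 to 5.29 on the 4 arrays.

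Glycolysis and hypoxia response genes also rose in part: 4 of 21 rose and 0 fell, with a median of 0.146, and 2 or 3 members were called without 1 array at a time. The share called higher over all genes was 1.85%. Aldolase C (Aldoc) read 6.41 and 6.43 at day 6 and 7.46 and 7.37 at day 10 (0.99 ± 0.10, limma adjusted p = 0.00041). Egln3, a prolyl hydroxylase induced by low oxygen, read 6.67 and 6.73 and then 7.62 and 7.75 (0.98 ± 0.08, limma adjusted p = 0.00012). In both genes each day 10 array lay above each day 6 array. The 17 other members were not called, among them the bright glycolytic enzymes Pgk1 (-0.01 ± 0.07), Pkm (-0.02 ± 0.06) and Ldha (0.10 ± 0.06). The mitophagy gene Bnip3 (0.45) and the phosphofructokinase Pfkl (0.36) rose, and both calls were lost without 1 array (limma adjusted p up to 0.22).

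Matrix genes changed in both directions. Among 19 crosslinking and elastic fibre genes, 2 rose and 4 fell, against 1.85% called higher and 1.23% lower over all genes. The median was -0.157. Elastin (Eln) read 6.30 and 6.54 at day 6 and 7.52 and 7.54 at day 10 (1.11 ± 0.13, limma adjusted p = 0.00099). Lysyl oxidase (Lox), the enzyme that crosslinks elastin and collagen, read 10.11 and 10.14 and then 9.52 and 9.54 (-0.59 ± 0.06, limma adjusted p = 0.00036). Thus elastin rose while its crosslinking enzyme fell, and both calls held without any 1 array. Loxl4 (-0.58), Efemp1 (-0.49) and Fbln2 (-0.31) fell and Plod1 (0.38) rose, and the calls of Loxl4, Fbln2 and Plod1 were lost without any 1 of the 4 arrays (limma adjusted p up to 0.25 for Loxl4). Of 22 collagens, Col11a1 (0.36) and Col14a1 (0.29) rose and Col1a1 (-0.36) and Col5a1 (-0.35) fell, and none of these 4 calls held without each single array.

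Matrix Gla protein (Mgp), an inhibitor of calcification, was one of 22 matricellular genes and read 9.47 and 9.36 at day 6 and 10.54 and 10.59 at day 10 (1.15 ± 0.09, limma adjusted p = 0.0001). Ccn3 rose by 0.66, and Ccn4 (-0.58), tenascin C (Tnc, -0.46) and thrombospondin 1 (Thbs1, -0.25) fell, and the calls of Ccn3 and Thbs1 were lost without some single arrays (limma adjusted p up to 0.22). Stromelysin 1 (Mmp3) read 6.69 and 6.82 and then 7.73 and 7.58 (0.90 ± 0.09). It was the only one of 22 matrix-degrading enzymes and inhibitors that rose. Adamts12 (-0.40), Timp1 (-0.31) and Adamts1 (-0.27) fell, each call being lost without some single arrays.

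Signalling genes showed scattered changes with no common direction. Of 22 TGF-beta genes, the latency protein Ltbp4 rose (0.84 ± 0.11), and follistatin (Fst, -0.61 ± 0.07) and the activin subunit Inhba (-0.52 ± 0.11) fell. Of 28 Wnt genes, the secreted antagonists Frzb (0.79 ± 0.08) and Sfrp1 (0.60 ± 0.08) rose and Notum, another antagonist, fell (-0.31 ± 0.07). Frzb read 6.44 and 6.57 at day 6 and 7.21 and 7.38 at day 10. Of 22 BMP genes, Bmp2 (0.51) and the receptor Acvrl1 (0.38) rose and Id2 (-0.30), a target of the pathway, fell. Of 12 IGF genes, Igf2 fell, and the binding proteins Igfbp5 (0.47), Igfbp4 (0.45) and Igfbp6 (0.37) rose. The calls of Inhba, Notum, Igfbp4, Igfbp5, Igfbp6 and all 3 BMP genes were lost without some single arrays (limma adjusted p up to 0.29).

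The acute phase gene Saa3 read 5.59 and 5.72 at day 6 and 6.79 and 6.55 at day 10 (1.02 ± 0.10, limma adjusted p = 0.00026). Of the 31 chemokine and inflammatory genes to which it belongs, 2 rose (Saa3 and Ccl11, 0.35) and 3 fell (Ptx3 by 0.44, Il6 by 0.36 and Cxcl5 by 0.30), and the Saa3 call alone held without any 1 array. Of 20 aldo-keto reductases, aldehyde dehydrogenases and retinoid genes, Akr1c18 read 11.37 and 11.36 and then 10.68 and 10.62 (-0.72 ± 0.06). Aldh3a1 (0.67) and the retinoic acid binding protein Crabp1 (0.61) rose, and Akr1b8 (-0.50) and Aldh1a7 (-0.47) fell. The Akr1b8 call was lost without 3 of the 4 single arrays (limma adjusted p up to 0.076) and the Aldh1a7 call without any 1 of them (up to 0.18). Whether probes of related Akr genes cross-hybridise was not checked. Asparagine synthetase (Asns), a target of the amino acid stress factor ATF4, fell from 10.38 and 10.42 to 9.90 and 9.95 (-0.47 ± 0.06), while the arginine transporter Slc7a3 of the same list of 25 rose (1.07 ± 0.07).

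Few replication and mitosis genes were called. Of 28 DNA replication genes, 2 fell (Ccne1 by 0.55 and Rrm2 by 0.32), against 1.23% called lower over all genes. The list's median was -0.154, against -0.003 over all genes. The difference was above 0 for 4 of the 28. The list's mean level was 7.452 to 7.478 at day 6 and 7.285 to 7.316 at day 10, and the list was not tested as a group. Of 29 mitosis genes, Ccnb2 rose by 0.26, with a median of -0.020. Of 20 p53 and Ink4 barrier genes, Ccng1 (-0.52), Cdkn2b (-0.44) and Plk2 (-0.40) fell and Cdkn1b (0.39) rose. Of all these, only the call of Cdkn2b, the p15 cell cycle inhibitor, held without any 1 array, and it read 7.93 and 7.87 at day 6 and 7.42 and 7.50 at day 10. Of 23 mesenchymal transcription factors, Meox2 (0.49) and Nfix (0.33) rose and Twist2 (-0.44) fell, and none of these calls held without each single array. No gene was called among 16 cholesterol synthesis genes or 32 Hox genes, whose differences ranged from -0.252 to 0.245 and from -0.199 to 0.318.

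Markers of other cell types were mostly low, and few were called. Of 14 endothelial markers, Cd34 and the angiopoietin receptor Tek (0.66 ± 0.09) rose, and both calls held without any 1 array. The defining endothelial genes Cdh5 and Pecam1 read between 4.86 and 5.22 on the 4 arrays and were not called. The mean log2 level over the endothelial list was 5.68 to 5.69 per array at day 6 and 5.72 to 5.79 at day 10. Of 13 macrophage and blood markers, Itgam fell (-0.43 ± 0.07). The difference was above 0 for 1 of the 13, and the median was -0.128. The list's mean level was 5.42 to 5.52 at day 6 and 5.33 to 5.34 at day 10, with the pan-leukocyte gene Ptprc at 4.71 to 4.82. Of 11 keratinocyte markers, Sprr1a (0.63) and Krt14 rose, and the list's mean level was 5.22 at day 6 and 5.26 to 5.31 at day 10. The aggrecan gene Acan (-0.39) fell among 12 fat, cartilage and bone markers. The calls of Itgam, Krt14 and Acan were lost without some single arrays (limma adjusted p up to 0.25). No marker was called among 9 of nerve and glia and 10 of endoderm and trophoblast. The part of these markers in the other results was not tested.

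The same days were then compared in the other vectors. In SKO+Flag, 1610 genes (8.08%) were called between days, 3.75% of all genes higher and 4.33% lower. In SKO+HDAC7, 2902 (14.6%) were called, 7.86% higher and 6.70% lower. In GFP, with 1 array per day, 733 (3.68%) were called, 2.51% higher and 1.17% lower. These comparisons use other arrays than the SKO+MEF2C comparison and the same estimate of spread. Of the genes called in SKO+MEF2C, 287 of the higher and 199 of the lower were called in the same direction in SKO+Flag, which is 79.2% of the SKO+MEF2C genes and 30.2% of the SKO+Flag genes, and 0 were called in the opposite direction. With SKO+HDAC7, 259 higher and 181 lower genes were shared (71.7% and 15.2%), and 8 and 5 were called the opposite way. With GFP, 68 and 27 were shared (15.5% and 13.0%), and 12 and 32 were called the opposite way. Contractile genes are an example of a shared fall: 14 of 20 fell in SKO+Flag (median -0.431), 14 in SKO+HDAC7 (-0.441) and 0 in GFP (0.046), where Mylk (0.89) and Myh11 (0.41) rose.

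Among genes picked by the day comparison of 1 other SKO vector, the median difference was smaller in size with MEF2C than with the remaining SKO vector. The 747 genes that rose in SKO+Flag had a median change of 0.285 in SKO+MEF2C and 0.438 in SKO+HDAC7. The 863 genes that fell in SKO+Flag had medians of -0.210 and -0.382. The 1567 genes that rose in SKO+HDAC7 had medians of 0.140 in SKO+MEF2C and 0.201 in SKO+Flag, and the 1335 that fell had -0.121 and -0.249. Neither set was picked on SKO+MEF2C arrays, and the median over all genes was -0.003 there. In some lists the counts of calls had that order too: 17 of 27 interferon-stimulated genes rose in SKO+HDAC7, 10 in SKO+Flag and 7 in SKO+MEF2C, 15, 9 and 6 of 31 epithelial adhesion genes rose, 13, 8 and 4 of 21 glycolysis and hypoxia genes rose, and 9, 5 and 2 of 34 pluripotency genes rose. In others they did not: in the same vectors 4, 5 and 2 of 28 DNA replication genes and 5, 7 and 3 of 20 p53 and Ink4 barrier genes fell, and 1, 2 and 3 of 12 IGF genes and 0, 1 and 2 of 22 BMP genes rose. The order SKO+HDAC7, SKO+Flag, SKO+MEF2C also held over all genes. There 7.86%, 3.75% and 1.85% were called higher, and 6.70%, 4.33% and 1.23% lower. Counts of calls do not test the difference between vectors, which is tested gene by gene next.

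**Figure D3:**
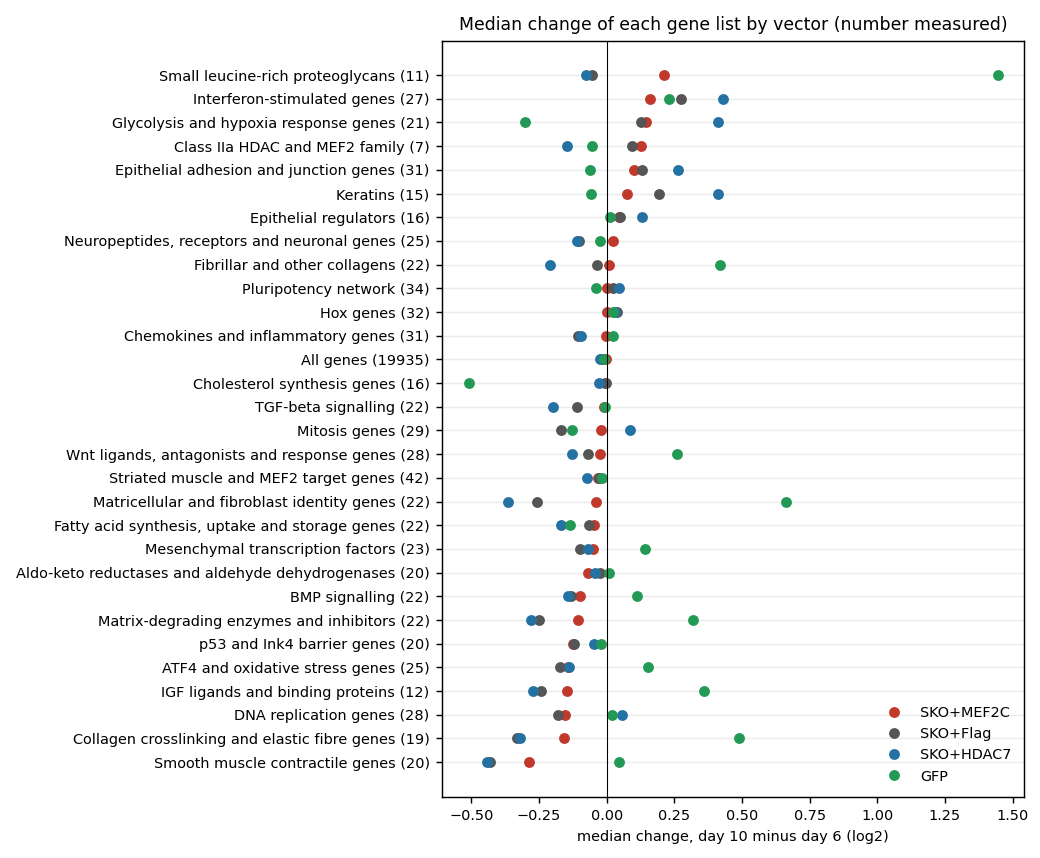
Median change between day 6 and day 10 (log2, horizontal axis) of each gene list, with the number of measured genes in parentheses, in SKO+MEF2C (red), SKO+Flag (grey), SKO+HDAC7 (blue) and GFP (green, 1 array per day). Contractile genes lie lowest in the 3 SKO groups, at -0.287, -0.431 and -0.441, and small leucine-rich proteoglycans lie highest in GFP, at 1.446.

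Against SKO+Flag, the day change with MEF2C differed for 17 genes (0.0853%), 9 higher (0.0451%) and 8 lower (0.0401%). An unadjusted p under 0.05 was found for 1337 of 19935 genes, where a share of about 0.05 would come with no difference at all. In 16 of the 17 the change was smaller in size with MEF2C than with Flag. Centring every array on its median gave 6 higher and 11 lower. The count was 213 (177 higher and 36 lower, with all 17 among them) without the second SKO+Flag day 10 array, 14 without the first, and 2 to 7 when any of the other 6 arrays of the comparison was left out. The call of Slc7a3 was the only one of the 16 named genes that held under all these and the other alternatives. In a fit to the compared groups alone it was the 1 call left. The differences from Flag given below for the other named genes are therefore less firm.

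Slc7a3, a cationic amino acid transporter that is high in embryonic stem cells, read 6.04 and 6.11 at day 6 and 7.09 and 7.21 at day 10 in SKO+MEF2C (1.07 ± 0.07). In SKO+Flag it read 6.61 and 6.66 and then 9.61 and 9.60, and in SKO+HDAC7 6.86 and 6.79 and then 9.61 and 9.76. On the 2 GFP arrays it read 6.13 and 6.35. The day change with MEF2C minus that with Flag was -1.90 (limma adjusted p = 1.9e-05), and the day 10 levels of SKO+MEF2C did not overlap those of the other SKO groups. Epcam rose with each SKO vector, by 1.21 with MEF2C, 2.36 with Flag and 2.95 with HDAC7, and the difference from Flag was -1.15 (limma adjusted p = 0.015). It read 8.08 and 8.24 at day 10 in SKO+Flag and 9.02 and 8.93 in SKO+HDAC7, against 6.62 and 6.34 in SKO+MEF2C. The cystatin-like gene Cstdc2 rose by 1.19, 2.30 and 2.93 with MEF2C, Flag and HDAC7.

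**Figure D4:**
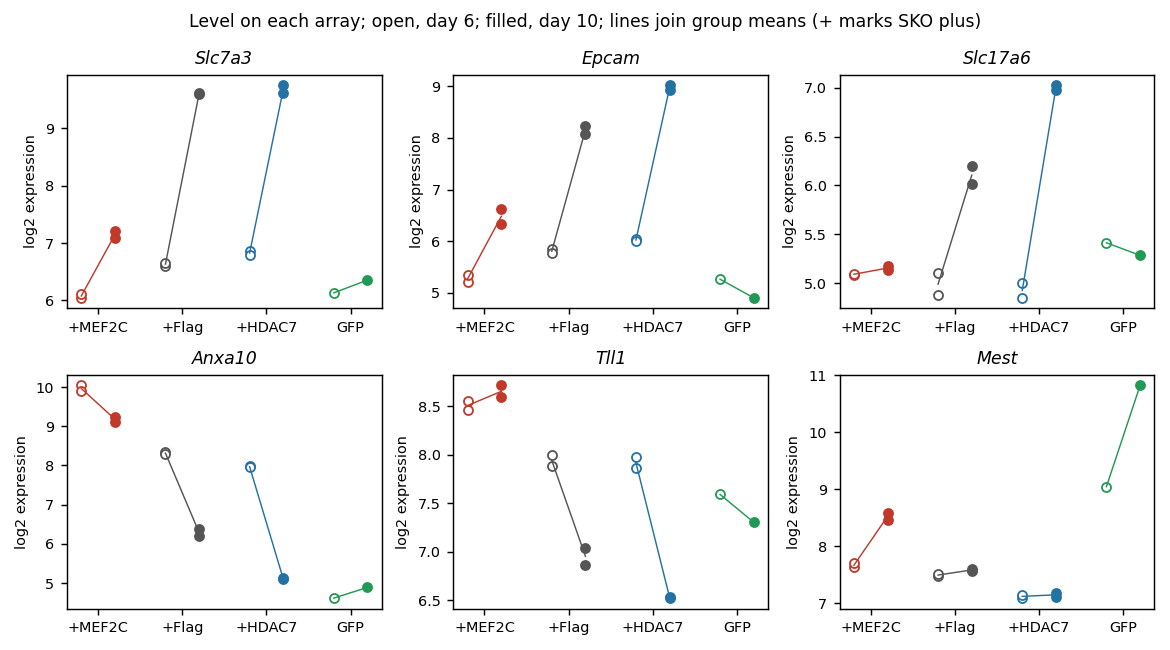
Levels (log2 expression, vertical axes) of 6 genes on all 14 arrays, with open circles for day 6, filled circles for day 10 and lines between group means. Slc7a3, Epcam and Slc17a6 have the lowest day 10 levels, and Anxa10 and Tll1 the highest, in SKO+MEF2C among the SKO groups, while Mest goes from 7.63 and 7.70 to 8.58 and 8.46 there and stays between 7.09 and 7.60 in the other SKO groups.

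Some genes rose with Flag, most of them also with HDAC7, and were not called with MEF2C. The vesicular glutamate transporter Slc17a6 read between 5.09 and 5.18 on the 4 SKO+MEF2C arrays, went from 5.11 and 4.87 to 6.01 and 6.20 in SKO+Flag, and rose by 2.08 to 6.97 and 7.03 in SKO+HDAC7. Its difference from Flag was -1.05 (limma adjusted p = 0.015). The tricellular junction gene Ildr1 had day differences of 0.17 with MEF2C, 1.28 with Flag and 0.89 with HDAC7 (difference from Flag -1.11, limma adjusted p = 0.015). The values were -0.05, 0.95 and 1.91 for the guanylate-binding protein Gbp4 (difference from Flag -1.01, limma adjusted p = 0.047). They were 0.24, 0.92 and 1.31 for Lgals7, a galectin of stratified epithelia (-0.68), and -0.16, 0.58 and 0.26 for the endocytic receptor Ly75 (-0.74), which was not called with HDAC7.

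Other genes fell with Flag and HDAC7 and fell less, or were not called, with MEF2C. Anxa10 fell by 0.79 with MEF2C, from 8.34 and 8.29 to 6.39 and 6.19 with Flag and from 7.97 and 7.96 to 5.09 and 5.12 with HDAC7, and the difference from Flag was 1.24 (limma adjusted p = 0.0038). At day 10 it stayed at 9.11 and 9.24 in SKO+MEF2C, above all arrays of the other vectors. Tll1, a protease that processes procollagen and BMP antagonists, differed between days by 0.15 ± 0.08 with MEF2C, which was not called, and by -0.99 with Flag and -1.39 with HDAC7 (difference from Flag 1.13, limma adjusted p = 0.0056). The G protein subunit Gnai1 fell with all 3, with values of -0.36, -1.14 and -1.32 (0.78, limma adjusted p = 0.015), and the matrix protease Adamts1 by -0.27, -0.87 and -1.16 (0.60, limma adjusted p = 0.024). The cytokine Tslp (0.89), the receptor Gpr176 (0.67), carboxypeptidase E (Cpe, 0.60) and Moxd1 (0.58) completed this direction. Mest, an imprinted gene of mesoderm, was the exception among the 17: it rose by 0.86 ± 0.06 with MEF2C and by 1.78 in GFP, and was not called with Flag (0.09) or HDAC7 (0.03). Its difference from Flag was 0.77 (limma adjusted p = 0.015).

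**Figure D5:**
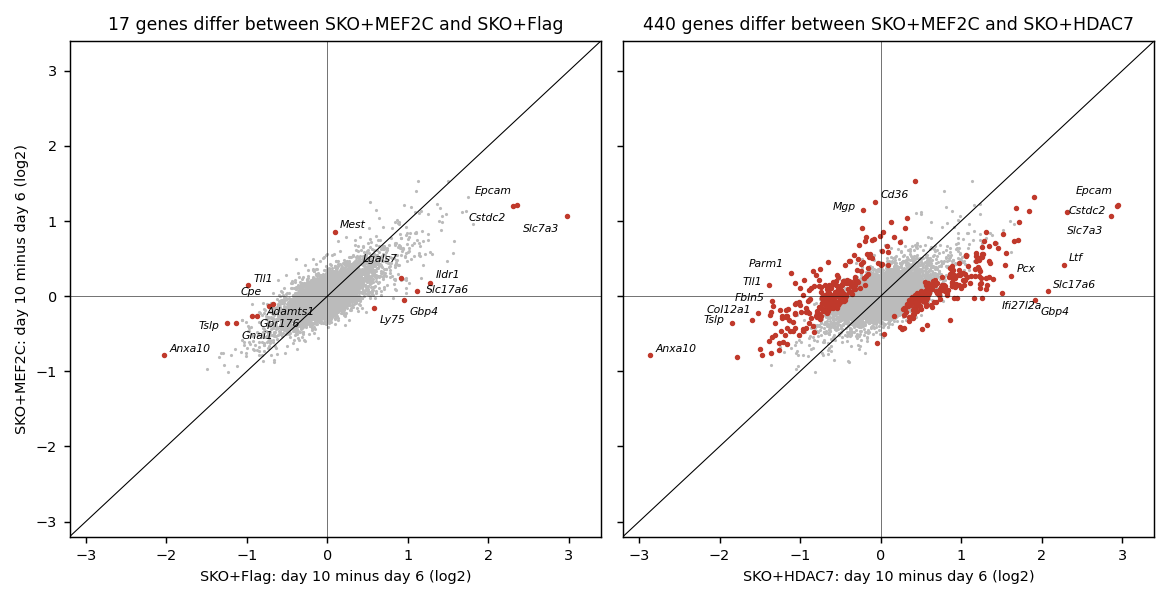
Change between day 6 and day 10 of 19935 genes (log2) in SKO+MEF2C (vertical axis) against SKO+Flag (left) and SKO+HDAC7 (right), with the line of equal change. Red points are the 17 and 440 genes whose change differs between the vectors by the limma test, and names mark up to 8 in each direction. Most red points lie nearer to 0 on the vertical axis than on the horizontal one.

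Against SKO+HDAC7, the day change differed for 440 genes (2.21%), 248 higher (1.24%) and 192 lower (0.963%). In 394 of them the change was smaller in size with MEF2C, and in 175 the changes had opposite signs. The count ranged from 185 to 292 without any 1 of the 8 arrays of the comparison. The fall of contractile genes was smaller with MEF2C for Tagln (difference 0.97, limma adjusted p = 0.00042), Actg2 (0.81) and Acta2 (0.78), which are 3 of the 20. Matricellular genes gave 8 of 22 such differences, all in the direction of a higher value with MEF2C. Thrombospondin 1 (Thbs1) was one of them, with a day difference of -0.25 with MEF2C and a fall from 12.21 and 12.24 to 10.87 and 10.83 with HDAC7 (difference 1.13, limma adjusted p = 8.9e-05). The comparison with Flag uses the same 4 SKO+MEF2C arrays as this one.

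In the other direction, lactoferrin (Ltf) rose by 0.42 with MEF2C and from 5.68 and 5.56 to 7.79 and 7.98 with HDAC7 (difference -1.85, limma adjusted p = 0.00011). The pyruvate carboxylase gene Pcx (0.27 with MEF2C and 1.62 with HDAC7), the interferon-induced gene Ifi27l2a (0.04 and 1.51) and Cdh1 (0.17 and 1.25) rose with HDAC7 and were not called with MEF2C. Their differences were -1.35, -1.46 and -1.08 (limma adjusted p = 0.0076 for Cdh1). The fibulin Fbln5 stayed at 12.09 and 12.14 at day 10 with MEF2C and went from 11.70 and 11.62 to 10.29 and 10.32 with HDAC7 (difference 1.29, limma adjusted p = 8e-05), and Col12a1 (1.29) and Parm1 (1.42) differed the same way. Mgp and Cd36 rose with MEF2C and were not called between days with HDAC7 (-0.22 and -0.07), with differences of 1.36 and 1.33. The Cd36 difference (limma adjusted p = 0.033) was past the threshold without the second SKO+HDAC7 day 10 array and lost without any other single array, with limma adjusted p up to 0.12. The 15 other named genes of this comparison were called under every alternative that tested them, and Ifi27l2a, Slc17a6 and Gbp4 were not among the genes above the median level.

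Against GFP, with 1 array per day, the day change differed for 542 genes (2.72%), 197 higher (0.988%) and 345 lower (1.73%). The GFP arrays are assumed to vary as the others do. In 395 of the 542 genes the GFP change was the larger, and 196 were also called between days in SKO+MEF2C. The count ranged from 341 to 362 without 1 SKO+MEF2C array at a time. Several of the named genes with lower values encode matrix and secreted proteins. The Wnt modulator Sfrp2 read 6.72 and 9.39 on the GFP arrays and between 9.08 and 9.23 in SKO+MEF2C (difference -2.58, limma adjusted p = 1.7e-06). The dermatopontin gene Dpt read 6.11 and 8.63 in GFP and between 4.76 and 4.98 in SKO+MEF2C (-2.46). Egfl6 rose by 0.79 in SKO+MEF2C and went from 4.97 to 8.38 in GFP (-2.62). Elastin (Eln) likewise rose by 1.11 in SKO+MEF2C and from 6.45 to 9.29 in GFP (-1.73, limma adjusted p = 0.0021). Matricellular genes were lower by this test for 13 of 22 and crosslinking and elastic fibre genes for 11 of 19.

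Growth factor genes differed in the same way, with Igf1 at 5.92 and 7.95 in GFP and 6.31 to 6.68 in SKO+MEF2C (-2.26), Igfbp2 at -2.41 and Igf2, which rose by 0.70 in GFP and fell in SKO+MEF2C, at -1.49. Ptx3 (-2.47), Mfap4 (-2.36) and Prss35 (-2.10) completed that direction. In the other direction, Cd34 read 7.47 and 6.97 in GFP (difference 2.03, limma adjusted p = 0.00011), and Necab1 (1.58), Epcam (1.57), Ifitm1 (1.48), Aqp3 (1.48), Egln3 (1.46), Crabp1 (1.44) and Csn1s1 (1.43) followed. The Csn1s1 call was lost without any 1 of the 4 SKO+MEF2C arrays (limma adjusted p from 0.059 to 0.072). Cholesterol synthesis genes gave 7 of 16 higher values by this test. They were not called in SKO+MEF2C, while 10 of 16 fell in GFP, for example Hmgcs1 by 0.76.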

How the data were processed

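Biotinylated cDNA of total RNA was hybridised to 14 whole-transcript Affymetrix arrays in 8 groups (vector by day). The authors deposited 1 log2 value for each probe set and array. RMA and Partek are the tools named, without versions, per the submitters' processing notes. A genome build is not given in the sources used here. No further normalization was applied. Of 28815 probe sets, 21780 had 1 gene symbol, 1605 several and 5430 none here. Through Entrez IDs 21689 matched RefSeq (GRCm38.p6), 91 did not, and 0 symbols changed. For 998 genes with several probe sets, the one with the highest mean over all arrays was used, giving 19935 genes. RMA shrinks differences of dim genes, and no filter was set. The number of arrays limits the precision.

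One group-means model (limma 3.58.1, R 4.3.3, lmFit and eBayes) had 6 residual and 4.71 prior degrees of freedom. Differences between vectors were interaction contrasts. Data were simulated from the fitted model in 10 draws, with 200 genes changed in SKO+MEF2C at day 10 and all other groups kept flat. In these, day differences of 0.3, 0.6 and 1.2 were called for 27.0%, 96.7% and 100.0% of changed genes. There were 9.4 false calls per draw on average. For the contrast with SKO+Flag the shares were 3.3%, 71.0% and 100.0%. The adjusted p depends on how many genes change, and on the arrays that contrast called 17, so these shares may be too high for it. The noise was drawn from the model itself, so its assumptions were not tested.

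The genes named are the transduced factors, the 20 largest rises and 20 largest falls among called genes with 1 sign in all 4 pairs of arrays, the 8 with the largest difference in each direction for each vector compared, and up to 5 called members of each list. Moxd1, Hmgcs1, Mylk, Fbln2, F11r, Irf7, Ddx58 and some uncalled or compared list members were chosen after their values were seen, to complete a count or describe a list. The members and the 37 lists (750 of 804 entries measured) were chosen with earlier results of these data known. Alternatives were an intensity trend with a robust prior, array weights, quantile normalization, median centring, the mean over probe sets, genes above the median level, the compared groups alone, the experiment number as a block, a minimum difference of 1, and leaving out each array.

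RefSeq promoter windows were matched by symbol and searched for 2 motifs, the CArG box and the MEF2 site. Probe sets with several or no gene names were left out.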

Additional observations from a re-analysis of the deposited data

Results flagged for a closer look

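The change between day 6 and day 10 in SKO+MEF2C differed from that of another vector for 17 genes with SKO+Flag, 440 with SKO+HDAC7 and 542 with GFP, by limma's test of the difference. All 3 comparisons use the same 4 SKO+MEF2C arrays, so they are not independent. The values below are log2 differences, the change with MEF2C minus the change with the other vector.

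Against SKO+Flag, the named genes with a higher value with MEF2C were Anxa10 (1.24), Tll1 (1.13), Tslp (0.89), Gnai1 (0.78), Mest (0.77), Gpr176 (0.67), Adamts1 (0.60) and Cpe (0.60). Those with a lower value were Slc7a3 (-1.90), Epcam (-1.15), Cstdc2 (-1.11), Ildr1 (-1.11), Slc17a6 (-1.05), Gbp4 (-1.01), Ly75 (-0.74) and Lgals7 (-0.68).

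Against SKO+HDAC7, the higher values were those of Anxa10 (2.08), Tll1 (1.53), Tslp (1.49), Parm1 (1.42), Mgp (1.36), Cd36 (1.33), Col12a1 (1.29) and Fbln5 (1.29). The lower ones were Slc17a6 (-2.01), Gbp4 (-1.97), Ltf (-1.85), Slc7a3 (-1.79), Epcam (-1.74), Cstdc2 (-1.74), Ifi27l2a (-1.46) and Pcx (-1.35).

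Against GFP, which had 1 array per day, the higher values were Cd34 (2.03), Necab1 (1.58), Epcam (1.57), Ifitm1 (1.48), Aqp3 (1.48), Egln3 (1.46), Crabp1 (1.44) and Csn1s1 (1.43). The lower ones were Egfl6 (-2.62), Sfrp2 (-2.58), Ptx3 (-2.47), Dpt (-2.46), Igfbp2 (-2.41), Mfap4 (-2.36), Igf1 (-2.26) and Prss35 (-2.10).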

How the results depend on the processing

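In the day comparison of SKO+MEF2C, 614 genes became 994 with array weights and 24 with a difference of at least 1, 250 to 317 without 1 array, and 552 to 704 under the settings not named here. Median centring gave 359 higher and 193 lower genes. Against SKO+Flag, 17 became 44 with an intensity trend and robust prior, 45 among genes above the median level, 1 in a fit to the compared groups alone, 8 with a difference of at least 1, and 2 to 213 without 1 array, the highest being without the second SKO+Flag day 10 array. Against SKO+HDAC7, 440 became 43 with a difference of at least 1 and 185 to 292 without 1 array. Against GFP, 542 became 141 with a difference of at least 1 and 341 to 362 without 1 array. The minimum difference of 1 was applied to these counts only, not to single named genes. No named gene reversed. The calls of 68 of 122 genes named in the day comparison held in every alternative that tested them, as did 1 of 16 against SKO+Flag, 15 of 16 against SKO+HDAC7 and 15 of 16 against GFP. The fit to genes above the median level tested 14, 13 and 14 of those 16. The causes were not tested, beyond fewer arrays or genes in a fit. Deviations of arrays with the same experiment number correlated between -0.24 and 0.18 over 15 pairs of SKO groups, 4 of them above 0.1, so the numbers were not taken to pair the arrays. With the replicate block common to the SKO arrays the counts were 585, 12 and 418 for the day comparison, SKO+Flag and SKO+HDAC7, and with the block within each vector 355, 1 and 169. The block was not fitted for GFP, which has 1 array per day. With 2 arrays per group, small changes of single genes remain poorly resolved.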
